A study of Saccharomyces cerevisiae with 6 samples.

Results

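The genes described here make chitin in budding yeast, Saccharomyces cerevisiae, or carry a chitin synthase to the cell surface. They were chosen by name as the 3 synthase genes CHS1 (YNL192W), CHS2 (YBR038W) and CHS3 (YBR023C), the activator gene SKT5 (YBL061C), the export gene CHS7 (YHR142W) and the transport genes CHS5 (YLR330W), CHS6 (YJL099W), BCH1 (YMR237W), BCH2 (YKR027W) and BUD7 (YOR299W). All 10 were on the array, each with 1 probe set annotated to it alone, out of 5349 yeast genes with signal above the filter. None of these 10 probe sets is of the kind that can match several transcripts.

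The study compared untreated yeast with yeast digested by zymolyase, an enzyme preparation that breaks down wall glucan. Both groups were the strain labelled BY4743, a MATa/α diploid listed with the alleles his3Δ1, leu2Δ0, met15Δ0, ura3Δ0 and lys2Δ0, and had grown for 2 days at 25 °C in rich YPD medium. The 3 treated samples then received 30 U/ml of zymolyase at 37 °C for 10 min, the 3 control samples received none, and each sample was read on its own Affymetrix array. The labels give no temperature for the control cells at that step, so enzyme and warming cannot be told apart, and they do not say that replicates were separate cultures, so p-values cover only the spread between these samples. In bulk RNA, fewer cells of a kind and less RNA per cell cannot be told apart either.

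Chitin is a minor polymer of the yeast wall, built from UDP-N-acetylglucosamine by synthases embedded in the plasma membrane. Chs2 lays down the primary septum between mother and daughter, Chs1 repairs the septum at separation, and Chs3 makes most of the remaining chitin, in the ring at the bud neck and in the lateral wall. Chs3 is also the synthase known for adding chitin when the wall is damaged. It leaves the endoplasmic reticulum with the help of Chs7, is carried from the trans-Golgi network by exomer, a coat made of Chs5 and the adaptors Chs6, Bch1, Bch2 and Bud7, and is activated at the surface by Skt5, also called Chs4.

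Correlations of log2 signal were 0.985 to 0.987 for arrays of the same group and 0.938 to 0.947 for arrays of different groups. Probe sets for a second species, which show the background, had a 99th percentile of 21.0 to 31.4 signal units per array, and CHS6, the gene closest to background among the 10, stayed at least 3.92 times above it on every array. Some signals went against the strain label: URA3, listed as deleted, gave 1802 ± 66.8 in the control (SD, n = 3), and LEU2 gave 671 ± 38.5. The a-cell receptor gene STE2 was low at 48.4 ± 11.1 while STE3, which marks α cells and is off in MATa/α diploids, gave 3035 ± 89.7, so the cells are called the strain labelled BY4743. The ratio of 3' to 5' signal, which rises as the RNA read gets shorter, was higher with zymolyase for 7 of 7 control genes, by 0.098 to 1.31 on the log2 scale. For 5 of them the two-sided exact permutation test gave p = 0.1, the smallest possible here, and the part of RNA length in the results below was not tested.

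CHS2, BCH1 and BUD7 rose clearly with zymolyase, CHS3 rose slightly (a direction that turned when the trend on coding length, described below, was removed), SKT5 and CHS5 fell slightly, and CHS1, CHS7, CHS6 and BCH2 did not pass the test. Changes are log2 fold changes of zymolyase over control from limma, with p-values adjusted by Benjamini-Hochberg over 5394 probe sets and a threshold of 0.05. The call was thus higher for 4 of the 10 genes and lower for 2, where 32.6% of all tested probe sets were called higher, 38.9% lower and 71.5% in either direction. These shares are near the background of the array, and the count alone is no result about the genes. Their median log2 fold change was 0.12, beside -0.08 over all tested probe sets, and turned to -0.12 with the trend on coding length removed, while single genes lay between the 37.2 and 91.2 percentile of all changes.

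**Figure D1:**
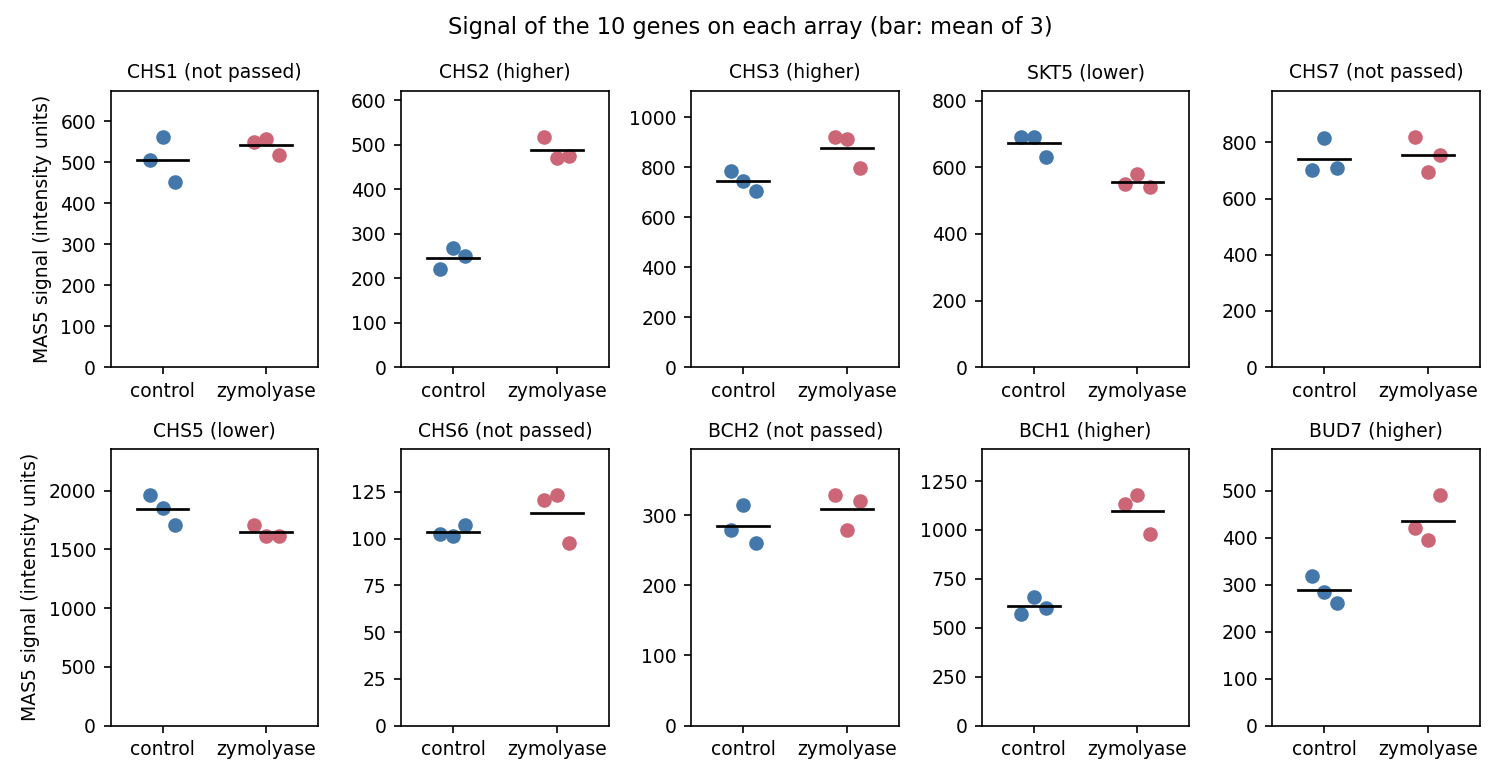
MAS5 signal in intensity units for each of the 10 genes on the 3 control and 3 zymolyase arrays, 1 point per array, with a bar at the group mean. The groups are separate for CHS2, CHS3, BCH1 and BUD7, with zymolyase above, and for SKT5, with zymolyase below.

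Among the synthases, CHS2 had the largest rise. Its MAS5 signals were 220, 267 and 249 in the control and 518, 470 and 475 with zymolyase. Every zymolyase array lay well above every control array, and the 2 groups were far apart relative to their spread. The group means were 246 ± 23.5 and 488 ± 26.6 (SD, n = 3), a 1.99-fold rise with a 95% interval of 1.73 to 2.28 (limma adjusted p = 7.5e-07).

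CHS3, which accounts for most wall chitin, rose much less. Its signals were 785, 746 and 707 in the control and 922, 913 and 798 with zymolyase. The groups did not overlap, but the lowest zymolyase array lay just above the highest control array. The fold was 1.18 with a 95% interval of 1.05 to 1.31 (limma adjusted p = 0.012). The adjusted p was 0.052 without control replicate 3 and 0.051 without zymolyase replicate 1.

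CHS1, the repair synthase, did not pass. Its signals were 506, 563 and 451 in the control and 551, 558 and 517 with zymolyase. All of the zymolyase values fell inside the range of the control values. The interval of the fold ran from 0.944 to 1.22 (limma adjusted p = 0.30). With the deposited scaling, a moderate rise or a slight fall is thus not shown to be absent.

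A difference in change between 2 genes read on the same arrays does not depend on a scaling factor per array. In all, 6 pairs were compared with a two-sided exact permutation test over the 6 arrays, which cannot go below p = 0.1, so no pair could pass 0.05, and p-values were adjusted over the 6 pairs. The rise of CHS2 exceeded the change of CHS1 by 0.89 and that of CHS3 by 0.76 on the log2 scale, both with exact p = 0.1 and adjusted p = 0.2. CHS1 and CHS3 differed by -0.13 (exact permutation p = 0.3). With each array left out in turn, CHS2 still exceeded CHS1 by 0.81 to 0.98 and CHS3 by 0.65 to 0.82.

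SKT5, whose product activates Chs3 and ties it to the septin ring, was lower with zymolyase. Its signals were 692, 692 and 631 in the control and 551, 581 and 540 with zymolyase. All 3 zymolyase arrays lay below all 3 control arrays. The means were 672 ± 34.9 and 557 ± 21.2 (SD, n = 3), a fold of 0.83 with a 95% interval of 0.748 to 0.92 (limma adjusted p = 0.0035). The change of SKT5 minus that of CHS3 was -0.50 on the log2 scale (exact permutation p = 0.1, adjusted p = 0.2), between -0.55 and -0.46 with any 1 array left out, and -0.39 with the trend on coding length removed.

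CHS7, whose product is the chaperone that lets Chs3 leave the endoplasmic reticulum, had signals of 701, 817 and 709 in the control and 821, 695 and 754 with zymolyase. The groups overlapped, with the highest and the lowest of the 6 values both on zymolyase arrays. The fold was 1.02 with an interval of 0.903 to 1.15 (limma adjusted p = 0.77).

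CHS5, the core of exomer on which its adaptors assemble, had signals of 1961, 1848 and 1709 in the control and 1711, 1615 and 1615 with zymolyase. The ranges just overlapped, since zymolyase replicate 1 lay above control replicate 3. The fold was 0.896 with a 95% interval of 0.817 to 0.983 (limma adjusted p = 0.034). This call was weak: the adjusted p was 0.135 without control replicate 1, 0.0778 without control replicate 2, 0.0953 without zymolyase replicate 2, 0.0764 without zymolyase replicate 3, and 0.0827 when the spread model had no intensity trend.

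The 4 adaptor genes form 2 pairs of duplicates that trace back to the ancient whole-genome duplication of yeast, BCH1 with BUD7 and CHS6 with BCH2. Both genes of the first pair rose. BCH1 signals were 573, 658 and 604 in the control and 1131, 1178 and 980 with zymolyase. The groups were widely separated, and the fold of 1.79 (95% interval 1.59 to 2.02, limma adjusted p = 9.4e-07) was the second largest of the 10 genes. BUD7 signals were 319, 285 and 261 in the control and 421, 396 and 491 with zymolyase. Again all zymolyase arrays lay above all control arrays, with a fold of 1.51 (95% interval 1.29 to 1.76, limma adjusted p = 0.00019).

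Neither gene of the second pair passed. CHS6, the adaptor whose loss alone blocks Chs3 transport, had signals of 103, 101 and 107 in the control and 121, 123 and 97.8 with zymolyase. Of its zymolyase arrays, 2 lay above and 1 below all controls, and the interval of the fold was 0.875 to 1.37 (limma adjusted p = 0.45). BCH2 signals were 279, 314 and 260 in the control and 328, 278 and 319 with zymolyase. These ranges overlapped, and the interval of the fold was 0.932 to 1.26 (limma adjusted p = 0.31).

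Inside each pair the duplicates were not shown to differ. BCH1 exceeded BUD7 by 0.25 on the log2 scale (exact permutation p = 0.3), and CHS6 exceeded BCH2 by 0.0092 (exact permutation p = 0.9), a sign that turned with an offset of 50, with quantile normalization and with some arrays left out. The log2 fold changes of 0.84 and 0.59 for BCH1 and BUD7 stand beside 0.13 and 0.12 for CHS6 and BCH2. The gap between the 2 pairs was seen after the values were known and was not tested.

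**Figure D2:**
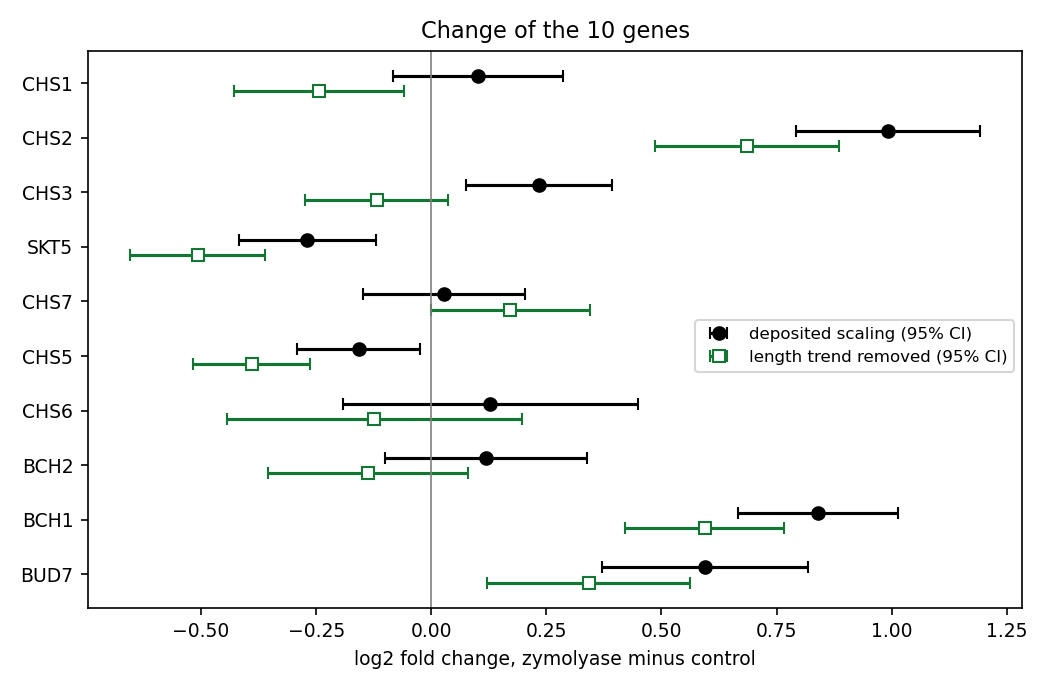
Log2 fold change of zymolyase over control for the 10 genes with 95% intervals, with the deposited scaling (black circles) and after removal of the trend of each array on coding length (green open squares). CHS2, BCH1 and BUD7 stay above 0 and SKT5 and CHS5 below 0 in both, while CHS1, CHS3, CHS6 and BCH2 change sign.

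Changes over the whole array moved with coding length, and 9 of the 10 genes have a coding length above 2000 nt. Coding length here is the gene length listed by RefSeq, which is not always that of the coding sequence alone. Median log2 fold change was -0.36 for tested probe sets of 500 to 1000 nt in coding length, 0.22 from 2000 to 2500 nt and 0.24 from 3000 to 3500 nt. CHS1 and CHS3 have coding lengths of 3396 and 3498 nt, CHS2 2892 nt, and CHS7 is the shortest at 951 nt. CHS3, with a log2 fold change of 0.23, sat at the median of 0.23 among 194 probe sets within 10% of its length. CHS2, at 0.99, was above the corresponding median of 0.27, and SKT5, at -0.27, was below its median of 0.19. CHS7, at 0.03, was above its median of -0.27. Of probe sets of 2500 to 3000 nt, 49.65% were called higher, and of those of 2000 to 2500 nt, 17.22% were called lower.

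With the length trend removed from each array, 3 of the 10 genes were called higher and 3 lower, where 30.1% of all tested probe sets were called higher and 38.0% lower. CHS2, BCH1 and BUD7 kept their rise, with log2 fold changes of 0.69, 0.59 and 0.34 (limma adjusted p = 2.8e-05, 2.7e-05 and 0.0093). SKT5 and CHS5 were lower by more, with log2 fold changes of -0.51 and -0.39 (limma adjusted p = 2.5e-05 and 7.0e-05). CHS3 turned to -0.12 and lost its call (limma adjusted p = 0.16), and CHS1 turned to -0.24 and was called lower (limma adjusted p = 0.022). CHS7 moved to 0.17 and was still not called (limma adjusted p = 0.072). The direction of CHS1 and CHS3 thus depended on this choice, and whether the length trend belongs to the cells or to the measurement was not tested.

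**Figure D3:**
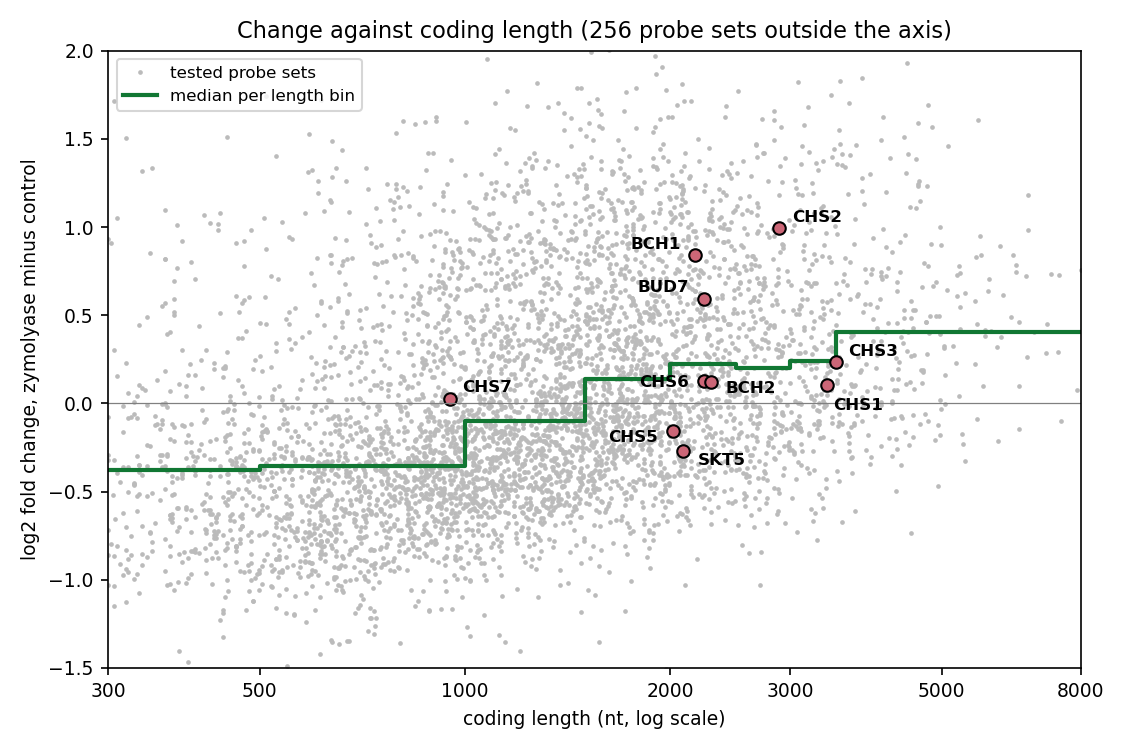
Log2 fold change of zymolyase over control against coding length in nt (log scale) for the tested probe sets (grey), the median in each length bin (green line) and the 10 genes (red). CHS2, BCH1 and BUD7 lie above the median of their length, SKT5 and CHS5 below it, and CHS3 close to it. In all, 256 probe sets lie outside the axis.

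Read without any model, all zymolyase arrays lay above all control arrays for 4 of the 10 genes, where this held for 33.4% of all tested probe sets. They lay below for 1 of the 10, where this held for 39.9% of all.

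The genes that act on the same polymer, or beside each synthase, were then set next to the 10. UDP-N-acetylglucosamine, the substrate of all 3 synthases, is made from fructose 6-phosphate by Gfa1, Gna1, Pcm1 and Qri1. GFA1, the first and committed step, had signals of 1204, 1291 and 1307 in the control and 1992, 2030 and 1937 with zymolyase. These groups were far apart, with a log2 fold change of 0.65 ± 0.06 (limma adjusted p = 3.4e-07), where ± after a log2 fold change is here and below its standard error. QRI1, the last step, rose by 0.33 ± 0.06, and PCM1 did not pass (-0.03 ± 0.06, limma adjusted p = 0.595), although it was called lower with the length trend removed (-0.21, limma adjusted p = 0.0038).

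GNA1, the acetyltransferase of the second step, was called lower with -0.14 ± 0.06 (limma adjusted p = 0.046). That call was lost without control replicate 2 (adjusted p = 0.125) or 3 (0.0975), without zymolyase replicate 2 (0.195) or 3 (0.0622), after quantile normalization (0.0687) and with no intensity trend (0.0794), and with the length trend removed this short gene was higher, at 0.21 (limma adjusted p = 0.0080). Among the 4 supply genes there were thus 2 called higher, 1 called lower and 1 not called, beside 32.6% higher and 38.9% lower over all tested probe sets, with a median log2 fold change of 0.15. With the length trend removed, 3 were called higher and 1 lower.

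Of 7 genes that cut, deacetylate or cross-link chitin, 6 were above the filter, with 2 called higher, 1 called lower and 3 not called, and a median log2 fold change of 0.45. Over all tested probe sets 32.6% were called higher and 38.9% lower. CTS1, the chitinase that opens the septum from the daughter side, rose by 1.34 ± 0.05, further than any of the 10 genes. CRH1, which attaches chitin to glucan, rose by 1.02 ± 0.06, whereas UTR2, which does the same, had -0.12 ± 0.06 (limma adjusted p = 0.0654). UTR2 was called lower with median centring (limma adjusted p = 0.0151) and with the length trend removed (0.00348). CTS2, a gene related to chitinases, fell by 0.40 ± 0.13, though without control replicate 1 or 2 its adjusted p was 0.061 and 0.060. The sporulation genes CDA1 and CRR1 did not pass, and CDA2 was below the filter. CRR1 was at background on at least 1 array, and CDA1 on every array, with signals of at most 20.8. The CDA1 means were 7.39 in the control and 15.9 with zymolyase, beside a filter of 10.1 on the mean of all arrays. Its log2 fold change of 1.63 enters the median of 0.45 but is a value at background.

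Of 8 genes that work beside Chs2 at cytokinesis, 7 were called higher, 0 lower and 1 was not called, where 32.6% of all tested probe sets were called higher and 38.9% lower. Their median log2 fold change was 0.73 beside -0.08 over all tested probe sets. This list, like the others, was chosen with earlier results of these data known, so its count is no independent test. INN1, which activates septum formation at the contracting ring, had signals of 208, 137 and 172 in the control and 371, 388 and 455 with zymolyase. The groups did not overlap, and its change of 1.25 ± 0.14 was larger than that of CHS2 (limma adjusted p = 4.5e-06). MOB1 and DBF2, the subunits of a mitotic exit kinase that phosphorylates Chs2, rose by 1.04 ± 0.07 and 0.77 ± 0.09.

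HOF1, a membrane-binding protein of the ring, rose by 0.96 ± 0.10. The other four genes were named after their values were seen. CDC14, the phosphatase that releases Chs2 from the endoplasmic reticulum, rose by 0.70 ± 0.08. MYO1, the ring myosin, had a smaller change of 0.38 ± 0.14, which was 0.20 and not called without control replicate 2 (limma adjusted p = 0.139). It also missed the threshold without zymolyase replicate 1 (0.0537) or 3 (0.0855) and with no intensity trend (0.0989). CYK3 (0.20 ± 0.08) lost its call without control replicate 1 (0.121) or 2 (0.123), without zymolyase replicate 1 (0.122) or 2 (0.0725), and with quantile normalization (0.0727), median centring (0.101) or no intensity trend (0.0615). IQG1, the ring scaffold, did not pass (0.12 ± 0.08, limma adjusted p = 0.18). With the length trend removed, 5 of the 8 were called higher (30.1% of all tested probe sets), MYO1 and CYK3 were not called (-0.09 and -0.08), and IQG1, a long gene, was called lower (-0.29, limma adjusted p = 0.0058).

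CHS2 itself is transcribed late in the cell cycle with the CLB2 cluster, a set of genes switched on before mitosis. From this cluster 14 other genes were analysed, and 4 of them (MOB1, HOF1, MYO1 and IQG1) are also among the cytokinesis genes. The call was higher for 8 and lower for 3, and 3 did not pass, beside array-wide shares of 32.6% higher and 38.9% lower, and the median log2 fold change was 0.35. Besides MOB1 and HOF1, the largest changes were those of KIN3, a protein kinase, at 0.93 ± 0.09 and HST3, a histone deacetylase, at 0.88 ± 0.11. The 3 that fell, named after their values were seen, were the mitotic cyclin genes CLB2 (-0.54 ± 0.09) and CLB1 (-0.43 ± 0.06) and the polo kinase gene CDC5 (-0.29 ± 0.06). Genes of the cluster thus changed in both directions. ALK1, also named after its values were seen, just missed the threshold (-0.18, limma adjusted p = 0.0508). The count called lower was 4 with an offset of 50, quantile normalization, median centring or the 99th percentile filter. It was also 4 with a replicate block or single-transcript probe sets alone, and 3 to 4 with 1 array left out. With the length trend removed, 6 were called higher, 5 lower and 3 not called, beside 30.1% and 38.0% of all tested probe sets, with a median of 0.02.

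A further list held 16 genes linked to the placement, retention or modification of Chs3. Of these, 2 were called higher, 7 lower and 7 not called, where 32.6% and 38.9% of all tested probe sets were called higher and lower. The median log2 fold change of the 16 was -0.13 beside -0.08 over all tested probe sets. With the length trend removed, 2 were called higher, 8 lower and 6 not called, with a median of -0.19. The array-wide shares were then 30.1% higher and 38.0% lower. The AP-1 coat, which returns Chs3 from endosomes to the trans-Golgi network, had genes called in both directions. Its small subunit gene APS1 had signals of 1358, 1099 and 1204 in the control and 741, 731 and 780 with zymolyase, a log2 fold change of -0.70 ± 0.08 (limma adjusted p = 3.3e-06). APS1 is short, at 471 nt, and the median among probe sets of similar length was -0.41. With the length trend removed APS1 changed by -0.35 (limma adjusted p = 0.0016).

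The medium subunit gene of AP-1, APM1, had 348, 345 and 344 in the control and 530, 509 and 552 with zymolyase. This was a rise of 0.62 ± 0.07 (limma adjusted p = 6.4e-06), and of 0.52 with the length trend removed. The groups of both genes were fully separate, in opposite directions. Of the large subunit genes, named after their values were seen, APL4 fell by 0.38 ± 0.08 and APL2 did not pass (-0.0017 ± 0.07, limma adjusted p = 0.985), although APL2 was called lower with the length trend removed (-0.25).

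ARF2, a GTPase that recruits coats to the trans-Golgi network, fell by 0.57 ± 0.05, and PFA4, which palmitoylates Chs3, fell by 0.45 ± 0.09. ARF2 is short, at 546 nt, and the median among probe sets of similar length was -0.47. With the length trend removed, ARF2 changed by -0.23 and PFA4 by -0.41, both still called lower. GLC7 and BNI4 were named after their values were seen. GLC7, the phosphatase bound by Bni4 at the bud neck, fell by 0.42 ± 0.06. BNI4, which links Skt5 to the septins, had -0.14 ± 0.08 and did not pass (limma adjusted p = 0.12), while with the length trend removed it was called lower (-0.43) and with arrays centred on their median as well (-0.18).

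**Figure D4:**
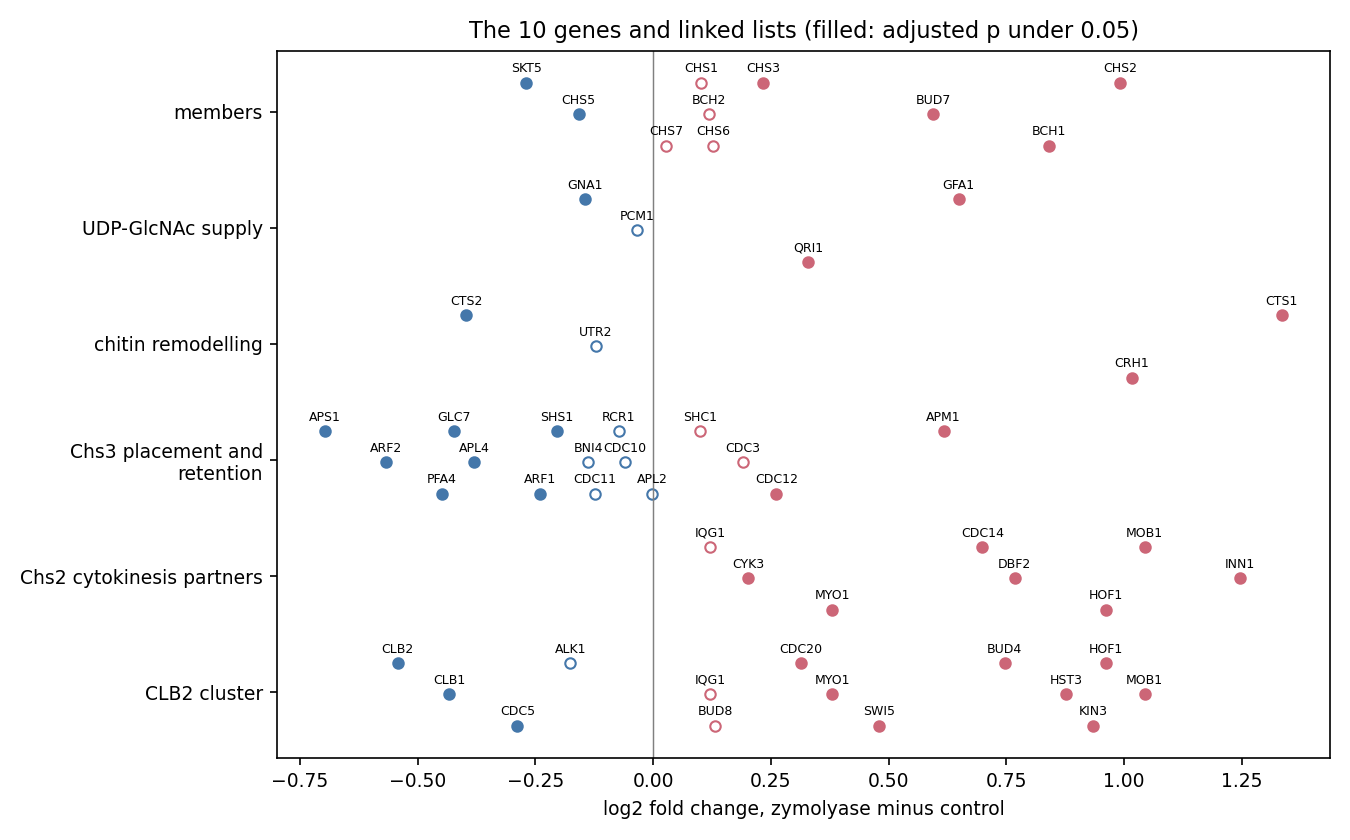
Log2 fold change of zymolyase over control for the 10 genes (top row) and for 5 linked lists, 1 point per gene, filled where limma's adjusted p was under 0.05, red above 0 and blue below 0. All 8 cytokinesis partners of Chs2 lie right of 0, and genes of the Chs3 placement and retention list lie on both sides. Genes at background on any array (CDA1 and CRR1) are left out. The vertical offsets only separate labels.

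The genes whose signals followed CHS2 most closely were found by the root mean square distance of gene-centred log2 signal over the 6 arrays, among 5348 other genes. They were MCM1, a transcription factor of the MADS-box family, at a distance of 0.049, DAN4, a wall mannoprotein gene, at 0.050, and TAF5, a subunit of TFIID and SAGA, at 0.052. Their log2 fold changes lay between 0.95 and 1.01, near that of CHS2, since the distance favours genes of like change. Once the length trend was removed, these became 1.15 for MCM1, 0.65 for DAN4 and 0.75 for TAF5, beside 0.69 for CHS2. In all, 98 genes lay within a distance no more than double that of MCM1. For SKT5, the member with the largest fall, the closest were TPO5, a polyamine exporter (0.013), RPL16A, a ribosomal protein gene (0.025), and ALG6, a glucosyltransferase of N-glycan assembly (0.030). Their log2 fold changes were -0.27, -0.28 and -0.25. RPL16A has a near-identical copy. Its probe set is not of the kind that can match several transcripts, and whether it also reads the copy was not tested. Here 2 genes lay within a distance no more than double that of TPO5. With the length trend removed, RPL16A changed by -0.09 and was not called (limma adjusted p = 0.141), beside -0.51 for SKT5.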

How the data were processed

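The authors deposited linear MAS5 signal intensities, 1 array per sample, per the submitters' processing notes; no version or genome build is given in the sources used here. Target RNA was labelled from the 3' end, per the labels' protocols. Each of the 6 arrays had a trimmed mean of 500.4 (2% trimmed per end), so that scaling was kept, and a change in total messenger RNA cannot be seen. Scanner files and detection calls were not used here. Of 10928 probe sets, 5498 matched 1 gene of the RefSeq table (assembly R64) and 1747 named genes absent from it, taken as the second species of this array design and as background. Yeast probe sets with a mean signal above the 90th percentile of that background (10.1) were tested, 5394 in all, and the brightest stood for its gene.

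The log2 of each signal, with no offset, entered limma 3.58.1 under R 4.3.3, with lmFit and then eBayes with an intensity trend. The procedure was tested on simulated data. Coding lengths are the gene lengths listed by RefSeq. They are not always those of the coding sequence alone: 96.8% are multiples of 3, and that of MOB1, 1030 nt, is not. The length trend was removed per array by local regression (span 0.5). The number of arrays limits the precision. Members and lists were chosen with earlier results of these data known. Named were the 10 members, every measured gene of lists of up to 7, the 4 largest changes of longer lists, and the 3 genes most like the largest rise and fall; other named genes were added after their values were seen.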

Additional observations from a re-analysis of the deposited data

How the results depend on the processing

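The settings tried were other scalings (quantile normalization, median centring, an offset of 50), other signal filters (none, or the 99th percentile of background), a flat spread model, a replicate block, removal of the length trend, single-transcript probe sets alone, and each array left out. The planned use of second probe sets gave no value, as no member has one. CHS2, SKT5, BCH1 and BUD7 kept their calls under all of these. Labels number the replicates, but same-numbered arrays share only a number: their deviations from the group means correlated at 0.047, 0.066 and 0.016. With this replicate block no member's call changed (CHS3 0.23, limma adjusted p = 0.0033), and chitin remodelling had 2 genes called lower instead of 1, with UTR2 added (limma adjusted p = 0.047). Without an intensity trend CHS5 (-0.16) was not called, leaving 1 member called lower, and 0 supply genes were lower, as under quantile normalization (0). Removing the length trend gave log2 fold changes of -0.24 for CHS1, -0.12 for CHS3, -0.12 for CHS6, -0.14 for BCH2, 0.21 for GNA1, -0.0945 for MYO1, -0.0842 for CYK3 and -0.29 for IQG1, and counts called lower of 2 in chitin remodelling (2 with median centring too), 1 among cytokinesis partners and 5 in the CLB2 cluster. CHS7 was -0.0191 with median centring. The CHS6 minus BCH2 difference was -0.0124 with an offset of 50 and -0.0875 after quantile normalization.

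With 1 array left out, log2 fold changes ranged from 0.92 to 1.05 for CHS2, 0.79 to 0.92 for BCH1, 0.51 to 0.67 for BUD7, 0.20 to 0.30 for CHS3, 0.02 to 0.18 for CHS1, -0.033 to 0.0983 for CHS7, 0.07 to 0.23 for CHS6, 0.06 to 0.19 for BCH2, -0.31 to -0.25 for SKT5 and -0.21 to -0.11 for CHS5. CHS6 minus BCH2 ranged from -0.12 to 0.14 and BCH1 minus BUD7 from 0.12 to 0.41. APL2 ranged from -0.0511 to 0.0252. Counts called lower were 1 to 2 among members, 0 to 1 among supply genes and 0 to 1 in chitin remodelling; members called higher were 3 to 4 and cytokinesis partners called higher 5 to 7. The cause of these changes was not tested, and 3 arrays per group limit the precision throughout.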
